A study of Homo sapiens with 8 samples.

Results

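The promoters described here are those that gave few reads in the first pull-down of oxidatively damaged DNA from WT cells, relative to the input DNA of the same replicate number. A promoter window was taken when it held 20 or more reads in WT input replicate 1 and when its share of the reads of WT OGAP replicate 1, divided by its share of the reads of WT input replicate 1, was 0.4 or less. This left 1064 low promoters, 5.33% of the 19957 windows in the table and 6.84% of the 15551 windows with enough input reads to be chosen. The other 14487 of those windows are called the other promoters. Both libraries of WT replicate 1 fix the choice, so their values are given as a description only. What could be learned about the low promoters came from the other 6 libraries.

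DNA came from RPE1 cells, an immortalised human cell line of retinal epithelial origin. OGAP-seq sequences fragments that were pulled down because they carry oxidative base damage, and input libraries hold DNA of the same kind that was not pulled down. KD cells were depleted of NuMA (also labelled TDIF), a nuclear protein that organises the spindle poles in mitosis, and are labelled post-doxycyclin; WT cells are labelled no doxycyclin. Doxycycline and depletion therefore cannot be told apart. The groups were KD OGAP, KD input, WT OGAP and WT input, with 2 libraries each. The labels do not say whether these came from separate cultures, so p-values measure the spread between libraries, which may be technical.

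Guanine is the base most readily oxidised in DNA, and its main product, 8-oxoguanine, is removed by the glycosylase OGG1 at the start of base excision repair. Many human promoters lie in CpG islands, stretches rich in G, C and the dinucleotide CpG. A count of pulled-down fragments over input reports how often a promoter was recovered relative to other promoters, not an absolute amount of damage.

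Across 8 libraries the totals were 368593 to 771138 reads in windows centred on gene starts. The median low promoter held 27 and 20 reads in KD OGAP, 39 and 35.5 in KD input, 15 in WT OGAP replicate 2 and 45 in WT input replicate 2. In the inputs, windows of chromosome 10 stood at 1.25 to 1.31 times the median of the other autosomes in all 4 libraries, where a gain of its long arm is a known feature of RPE1 cells. Of the low promoters 911 could be named by position. Of the low promoters 83 (7.80%) overlapped another window, against 3.29% of the other promoters and 18.7% of all windows.

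Sequences of 8 low promoters are shown first because they span the behaviours met below. DHX35 and CBX6 stayed low in both KD pull-downs. SOX12, EBF4, TSPAN17 and AKIRIN1 were among the lowest in the second WT pull-down. RPE65 and NTM were not low in the second WT pull-down. Each line runs 5′ to 3′ on the strand of the gene, from 250 bases before to 50 bases after a RefSeq gene start (GRCh38.p14), with CpG dinucleotides in capitals.
DHX35: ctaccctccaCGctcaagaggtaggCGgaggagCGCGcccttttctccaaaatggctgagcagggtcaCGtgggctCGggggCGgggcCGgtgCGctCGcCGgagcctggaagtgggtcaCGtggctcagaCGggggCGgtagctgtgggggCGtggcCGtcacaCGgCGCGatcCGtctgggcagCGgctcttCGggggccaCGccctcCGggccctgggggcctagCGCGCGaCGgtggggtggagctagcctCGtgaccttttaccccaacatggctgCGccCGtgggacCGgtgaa
CBX6: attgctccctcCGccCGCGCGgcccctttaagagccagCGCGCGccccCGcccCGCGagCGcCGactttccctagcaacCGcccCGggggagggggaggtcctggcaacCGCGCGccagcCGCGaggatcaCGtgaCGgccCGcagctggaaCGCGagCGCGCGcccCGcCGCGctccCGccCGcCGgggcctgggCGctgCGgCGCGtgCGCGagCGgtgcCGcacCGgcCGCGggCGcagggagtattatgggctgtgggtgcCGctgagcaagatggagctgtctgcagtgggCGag
SOX12: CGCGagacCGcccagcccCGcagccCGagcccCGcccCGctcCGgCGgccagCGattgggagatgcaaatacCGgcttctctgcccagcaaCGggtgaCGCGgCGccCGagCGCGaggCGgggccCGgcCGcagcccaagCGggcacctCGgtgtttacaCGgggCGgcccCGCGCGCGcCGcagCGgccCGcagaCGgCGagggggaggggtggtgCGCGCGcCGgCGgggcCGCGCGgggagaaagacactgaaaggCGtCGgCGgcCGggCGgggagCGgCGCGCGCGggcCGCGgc
EBF4: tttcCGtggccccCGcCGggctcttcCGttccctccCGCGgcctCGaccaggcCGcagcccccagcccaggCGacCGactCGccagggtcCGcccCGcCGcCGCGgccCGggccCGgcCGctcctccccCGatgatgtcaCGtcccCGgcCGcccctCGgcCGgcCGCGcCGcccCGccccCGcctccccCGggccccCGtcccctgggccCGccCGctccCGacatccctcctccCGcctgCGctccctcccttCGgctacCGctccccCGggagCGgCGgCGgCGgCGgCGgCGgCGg
TSPAN17: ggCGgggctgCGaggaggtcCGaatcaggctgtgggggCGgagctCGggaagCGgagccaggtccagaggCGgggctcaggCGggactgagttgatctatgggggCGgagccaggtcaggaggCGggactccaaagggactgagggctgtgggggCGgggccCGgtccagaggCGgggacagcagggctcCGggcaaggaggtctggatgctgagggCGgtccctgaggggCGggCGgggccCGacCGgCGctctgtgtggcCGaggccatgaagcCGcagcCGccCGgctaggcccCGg
AKIRIN1: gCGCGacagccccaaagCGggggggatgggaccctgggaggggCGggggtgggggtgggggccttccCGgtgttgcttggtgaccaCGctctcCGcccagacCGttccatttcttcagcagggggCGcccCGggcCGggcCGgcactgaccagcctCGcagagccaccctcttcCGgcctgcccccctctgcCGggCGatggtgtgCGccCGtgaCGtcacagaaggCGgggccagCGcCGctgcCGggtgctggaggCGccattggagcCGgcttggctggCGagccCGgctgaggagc
RPE65: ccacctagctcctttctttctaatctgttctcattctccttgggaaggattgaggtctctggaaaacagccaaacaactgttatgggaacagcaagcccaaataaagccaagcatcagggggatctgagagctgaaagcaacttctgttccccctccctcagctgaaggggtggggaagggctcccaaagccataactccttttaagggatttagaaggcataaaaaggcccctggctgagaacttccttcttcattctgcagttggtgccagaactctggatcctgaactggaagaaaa
NTM: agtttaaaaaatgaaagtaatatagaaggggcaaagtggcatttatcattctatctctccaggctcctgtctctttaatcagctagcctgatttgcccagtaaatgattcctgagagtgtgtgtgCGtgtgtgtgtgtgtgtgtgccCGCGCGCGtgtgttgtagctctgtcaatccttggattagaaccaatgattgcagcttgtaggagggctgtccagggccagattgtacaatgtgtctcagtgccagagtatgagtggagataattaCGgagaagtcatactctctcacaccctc
CpG is dense in the first 6 sequences and absent or rare in the last pair. These were picked as examples, and other low promoters go the other way. CKM, with 5 CpG, stayed low in the second WT pull-down (ratio of OGAP share to input share 0.335), and TBK1, with 35, did not (2.14). The count of CpG was 32 in DHX35 (chr20:38962094-38962393, plus strand), 47 in CBX6 (chr22:38872167-38872466, minus strand), 54 in SOX12 (chr20:325302-325601, plus strand) and 48 in EBF4 (chr20:2692530-2692829, plus strand). It was 25 in TSPAN17 (chr5:176647234-176647533, plus strand) and 27 in AKIRIN1 (chr1:38991026-38991325, plus strand). RPE65 (chr1:68449905-68450204, minus strand) had 0 and NTM (chr11:131370365-131370664, plus strand) had 6. GC content was 71.0%, 76.7%, 80.3%, 83.7%, 74.0% and 74.3% in the first 6, in the order printed, 48.3% in RPE65 and 46.0% in NTM. RPE65 makes the retinoid isomerase of the visual cycle, the defining enzyme of the retinal pigment epithelium, and NTM makes neurotrimin, a neuronal adhesion protein.

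In the libraries that did not choose them, the low promoters lay below the other promoters by much less, and less in both KD pairs than in the single WT pair. The median ratio of OGAP share to input share was 0.861 in KD replicate 1 and 0.827 in KD replicate 2, and 0.675 in WT replicate 2. The other promoters had medians of 0.998, 0.989 and 0.948 in the same 3 pairs. In the pair that chose them the low promoters had a median of 0.320, against 0.948. The middle 80% of low promoters ran from 0.527 to 1.38 in KD replicate 1, from 0.449 to 1.43 in KD replicate 2 and from 0.341 to 1.35 in WT replicate 2. For the other promoters it ran from 0.602 to 1.67, from 0.560 to 1.75 and from 0.445 to 2.11 in the same pairs. The sets thus overlapped widely, and ratios in WT replicate 2 spread more in the other promoters too. The part of this spread in the difference between KD and WT was not tested.

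**Figure D1:**
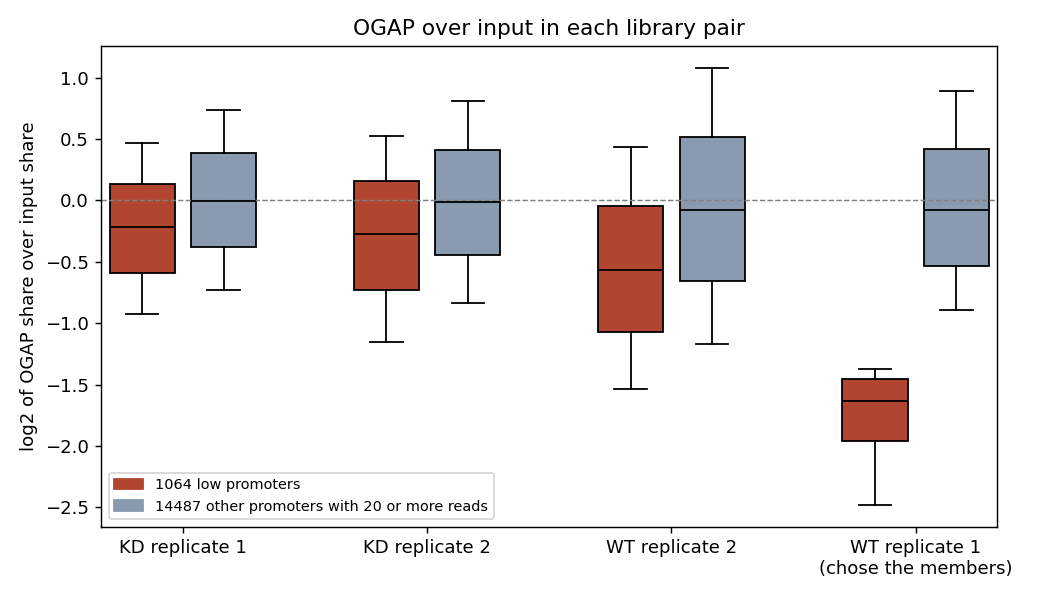
Boxes give the median and quartiles of the log2 ratio of OGAP share to input share over windows, and whiskers the 10th and 90th percentiles, for the 1064 low promoters and the 14487 other promoters in each library pair. The low promoters lie at a median ratio of 0.861 and 0.827 in KD and 0.675 in WT replicate 2, and windows at 0 reads are not drawn.

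Of the 1064 low promoters, 710 (66.7%) were below a ratio of 1 in KD replicate 1, 720 (67.7%) in KD replicate 2 and 819 (77.0%) in WT replicate 2. The shares among the other promoters were 50.1%, 50.9% and 53.5%. In all 3 pairs 404 low promoters (38.0%) lay below 1, against 22.5% of the other promoters, and 42 (3.95%) lay below 1 in none, against 20.3%. The same rule run on other pairs found 252 windows in KD replicate 1, 467 in KD replicate 2 and 1265 in WT replicate 2. Of the low promoters these held 35, 60 and 168, which is 3.29%, 5.64% and 15.8% of the low promoters and 13.9%, 12.8% and 13.3% of those lists. Over all windows with 20 or more input reads in those pairs, 1.63%, 3.04% and 8.27% met the rule. Most low promoters did not meet it again, and more of them did than of all windows in each of the 3 pairs; this difference was not tested.

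Read totals showed the same picture on the scale of libraries. The low promoters together took 5.33% and 4.97% of promoter reads in KD OGAP, against 6.23% and 6.05% in KD input. They took 4.30% in WT OGAP replicate 2, against 6.39% in WT input replicate 2. Pull-down libraries outside the rule thus lay below all inputs outside the rule, and the WT pull-down lay below both KD pull-downs. WT replicate 1, which fixed the choice, had 2.14% in OGAP and 7.09% in input.

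The ratio fell with the depth of the first input, in the low promoters and in the other promoters alike. Among the 130 with 20 to 29 reads in WT input replicate 1, the median ratio was 0.907 and 0.876 in KD and 0.847 in WT replicate 2. Among the 103 with 70 or more reads it was 0.779 and 0.764 in KD and 0.545 in WT replicate 2. The other promoters had medians of 1.09 and 1.09 in KD and 1.21 in WT replicate 2 at 20 to 29 reads, and of 0.891 and 0.847 in KD and 0.702 in WT replicate 2 at 70 or more. The low promoters thus lay below the others at both ends. At 70 or more reads 12.4% of windows were low promoters, against 4.98% at 20 to 29 reads. The count of WT input replicate 1 is also the denominator of the rule, so these shares are partly fixed by the choice. At 20 input reads the rule is met by 4 or fewer pulled-down reads.

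Across the low promoters, the log2 ratio of WT replicate 2 and the mean log2 ratio of KD correlated at Pearson r = 0.25 and a Spearman coefficient of 0.24 (1061 windows with reads in all 3 pairs), and the KD pairs correlated with each other at r = 0.11. Over the other promoters these were 0.48, 0.47 and 0.26 (14485 windows). These are descriptions across windows that share libraries and depth, and at these read counts the value of a single window is imprecise.

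**Figure D2:**
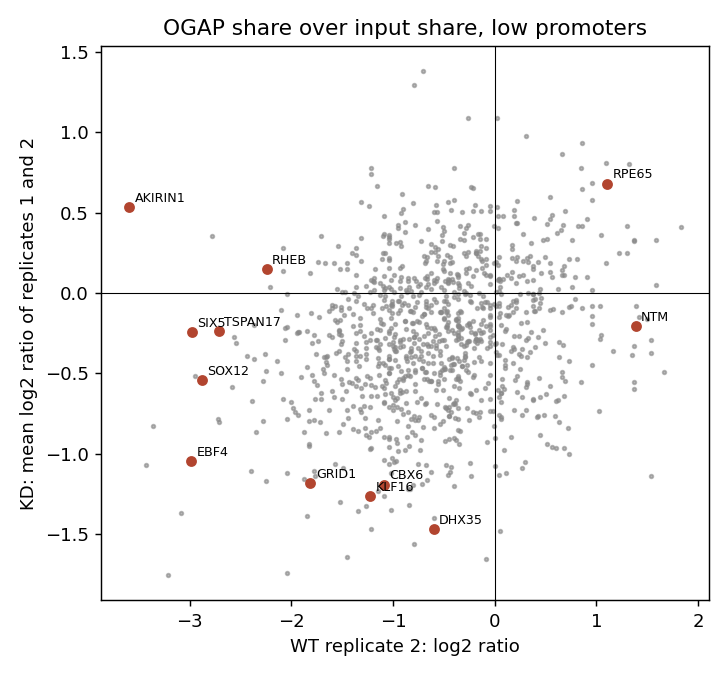
Each point is a low promoter with reads in WT replicate 2; the y axis gives the mean log2 ratio of OGAP share to input share over the KD replicates and the x axis that ratio in WT replicate 2. DHX35, CBX6 and KLF16 lie low in KD, SIX5, TSPAN17 and SOX12 lie low in WT replicate 2 and nearer to 0 in KD, and AKIRIN1 lies above 0 in KD.

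The first test asked which low promoters were under-represented in the pull-down of KD cells, whose 4 libraries played no part in the choice. Of 1064 low promoters 2 were lower in KD OGAP than in KD input and 0 were higher (edgeR quasi-likelihood test, n = 2 libraries a group). Among all 17382 windows tested 0.0978% were called lower and 0.57% higher, and among windows that could have been chosen 0.109% and 0.592%. The share of the low promoters called lower, 0.188%, rests on 2 windows and is no more than a count. At an unadjusted p under 0.05 there were 103 lower (9.68%) and 12 higher (1.13%), against 5.12% and 7.74% of windows that could have been chosen. The DESeq2 test called 1 lower and 0 higher, against 4 and 2 over all windows tested. At an unadjusted p under 0.05 it had 26 and 1 low promoters. With DESeq2, here and below, such unadjusted counts were made over low promoters only. The median log2 change was -0.21 over the low promoters, against 0.01 over the windows that could have been chosen, and 68.9% of low promoters were negative. The median over low promoters was -0.2676 without KD OGAP replicate 1, and -0.1687 and -0.2057 without KD input replicates 1 and 2.

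DHX35, the gene of a DEAH-box RNA helicase, was the only nuclear low promoter called in KD in this fit (edgeR). Its window (ENSG00000101452, hg38 chr20:38961298-38963298, plus strand) held 14 and 14 reads in KD OGAP, 66 and 40 in KD input, 17 in WT OGAP replicate 2 and 50 in WT input replicate 2. Both KD pull-downs lay below both KD inputs, with a log2 change of -1.47 ± 0.39 (SE, adjusted p = 0.0476, edgeR). In WT replicate 2 the change was -0.53 ± 0.54 and did not pass (adjusted p = 0.591). The call for DHX35 was lost when any of the 4 KD libraries was left out, with adjusted p-values of 0.0593 to 0.52, and with the DESeq2 test.

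ND6, a subunit of respiratory complex I encoded on the light strand of mitochondrial DNA, was the other called window (ENSG00000198695, 13674 to 15674 of the mitochondrial genome). It held 153 and 105 reads in KD OGAP, 377 and 376 in KD input, 127 in WT OGAP replicate 2 and 390 in WT input replicate 2. The KD change was -1.13 ± 0.20 (adjusted p = 0.00105, edgeR) and held without each KD library and with DESeq2. In WT replicate 2 it was -0.60 ± 0.28 (adjusted p = 0.193). The window overlaps another, and its ratio of 0.3997 in WT replicate 1 sits just inside the rule. ND6 was the only low promoter among 7 mitochondrial windows with enough input reads. Over all windows tested 17 were called lower in KD, and 13 in a fit without the mitochondrial windows, chosen after seeing the data. The KD call need therefore not be particular to ND6, and the values of the other mitochondrial windows are not given here.

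GRID1 and CBX6 had the next lowest p in KD and did not pass. GRID1, a glutamate receptor family gene on chromosome 10, held 40 and 20 reads in KD OGAP, 98 and 74 in KD input, 17 in WT OGAP replicate 2 and 116 in WT input replicate 2. Its change was -1.10 ± 0.30 in KD (adjusted p = 0.0562, edgeR) and -1.75 ± 0.45 in WT replicate 2 (adjusted p = 0.0137). CBX6, a Polycomb chromobox gene, held 22 and 30 reads in KD OGAP, 72 and 84 in KD input, 24 in WT OGAP replicate 2 and 99 in WT input replicate 2. It stood at -1.14 ± 0.31 in KD (adjusted p = 0.0594, edgeR). For both genes every pull-down library lay below every input library. The other low promoters with the lowest p in KD were ARC, an activity-regulated neuronal gene (-1.26 ± 0.35), AGPAT3, a phospholipid acyltransferase gene (-1.35 ± 0.38), KLF16, a zinc finger transcription factor gene (-1.23 ± 0.36), MSL1, a scaffold of a histone acetyltransferase complex (-1.19 ± 0.36), the kinase gene HUNK (-1.24 ± 0.38), the PHD finger gene PHF21B (-1.28 ± 0.39) and RIC3, a chaperone of acetylcholine receptors (-1.18 ± 0.36). None of these passed, with adjusted p-values of 0.0673 to 0.108 (edgeR). GRID1, CBX6 and ARC were called lower in KD under edgeR alternatives, namely no count filter, the replicate block and no overlapping windows.

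Among low promoters with a positive KD change, those with the lowest p did not pass either. ZNF763, a zinc finger gene, held 53 and 30 reads in KD OGAP, 27 and 35 in KD input, 21 in WT OGAP replicate 2 and 54 in WT input replicate 2 (0.83 ± 0.34 in KD, adjusted p = 0.266, edgeR). ATP10A, a phospholipid flippase gene, stood at 0.82 ± 0.33 and the apoptosis gene BMF at 0.75 ± 0.34. RPE65 held 42 and 44 reads in KD OGAP, 34 and 37 in KD input, 30 in WT OGAP replicate 2 and 27 in WT input replicate 2. Its change was 0.71 ± 0.33 in KD (adjusted p = 0.342, edgeR) and 1.17 ± 0.51 in WT replicate 2 (adjusted p = 0.153). In WT replicate 1 RPE65 had 10 pulled-down reads against 70 input reads, so its first input library was the highest of its 4 and its first pull-down the lowest.

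**Figure D3:**
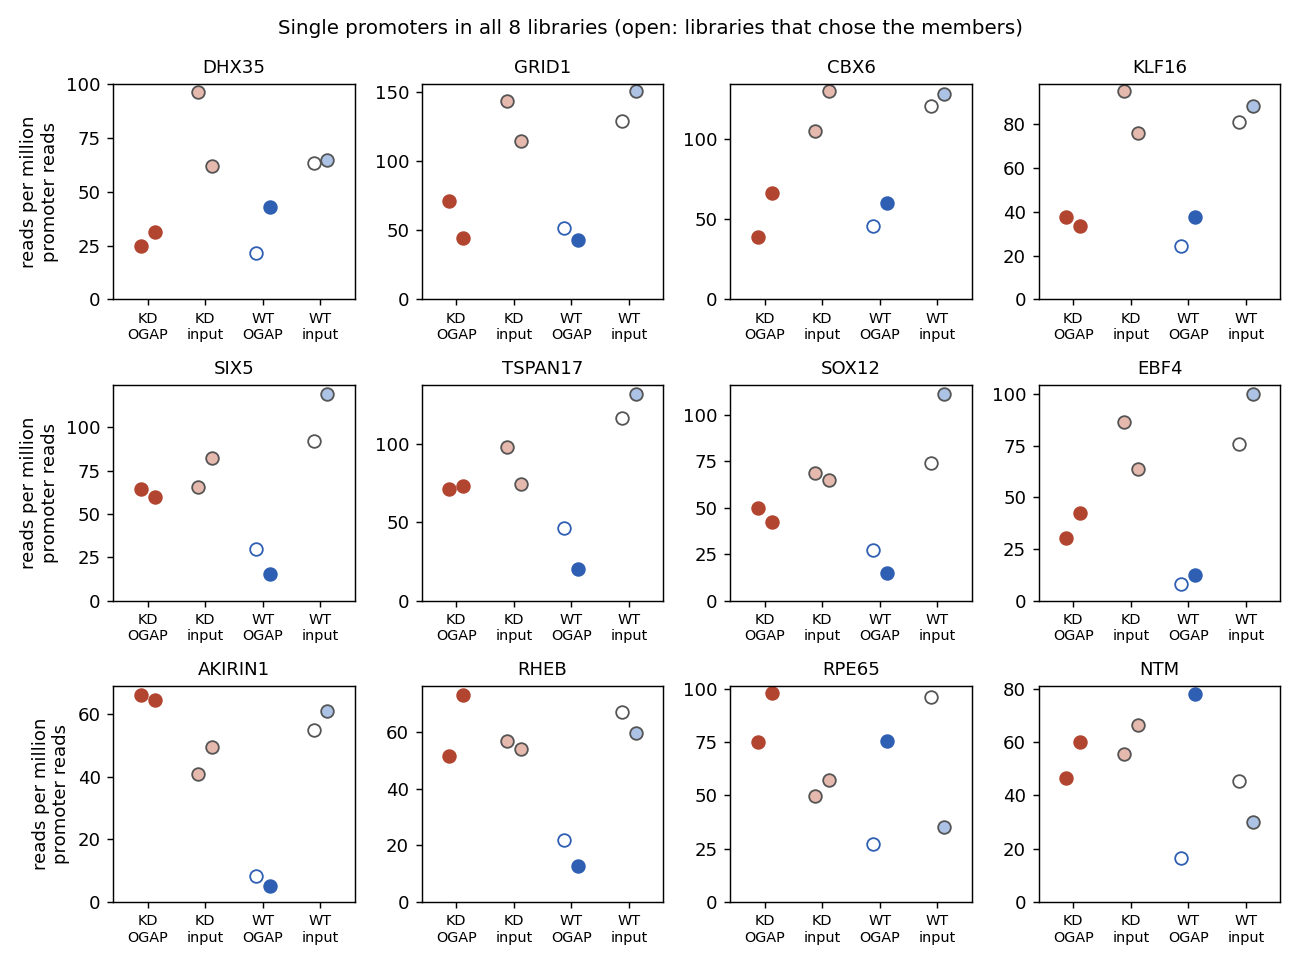
Points give CPM (reads scaled to the promoter reads of each library) for 12 low promoters in KD OGAP, KD input, WT OGAP and WT input, replicate 1 left of replicate 2; open points are the libraries that chose the members. DHX35, GRID1, CBX6 and KLF16 have all pull-down points below all input points, SIX5, TSPAN17, SOX12, AKIRIN1 and RHEB have low WT pull-downs, and RPE65 and NTM do not repeat the low value of WT replicate 1.

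The second test repeated the contrast of the rule in WT replicate 2, with 1 pull-down and 1 input library, which were assumed to vary like the KD replicates. Of 1064 low promoters 46 (4.32%) were lower and 0 higher (edgeR). Among windows that could have been chosen 2.19% were lower and 3.99% higher, and among all windows tested 1.98% and 4.26%. At an unadjusted p under 0.05 there were 220 lower (20.7%) and 18 higher (1.69%), against 11% and 11.9% of windows that could have been chosen. The DESeq2 test called 0 in either direction, against 0 lower and 22 higher over all windows tested. At an unadjusted p under 0.05 it had 59 low promoters lower and 0 higher. The median log2 change was -0.50 over low promoters and -0.05 over windows that could have been chosen. Set against the KD inputs in place of the single WT input, 36 low promoters were lower, against 235 of all windows tested. Of the 46 calls 22 held in this comparison, which was chosen after seeing the data. With KD OGAP replicate 1 or 2 left out, the median over low promoters was -0.4975 or -0.4981.

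The 46 had a median ratio of 0.210 in WT replicate 2, a value that their selection in this pair lowers. In KD, which took no part in that selection beyond the estimate of spread, their medians were 0.776 and 0.667, against 0.861 and 0.827 over all low promoters. Of them 35 lay below 1 in KD replicate 1, 36 in KD replicate 2 and 29 in both. Over all low promoters 66.7% and 67.7% lay below 1 in these pairs taken singly. The promoters named in this and the next 2 paragraphs, apart from SIX5, TSPAN17, SOX12 and GBX2, were chosen after their values were seen, by the lowest p in WT replicate 2. SIX5, a homeobox transcription factor gene (ENSG00000177045, chr19:45768227-45770227, minus strand), held 36 and 27 reads in KD OGAP, 45 and 53 in KD input, 6 in WT OGAP replicate 2 and 92 in WT input replicate 2. Its change was -2.90 ± 0.59 in WT replicate 2 (adjusted p = 0.0016, edgeR) and -0.21 ± 0.33 in KD (adjusted p = 0.84). TSPAN17, a tetraspanin gene, held 40 and 33 reads in KD OGAP, 67 and 48 in KD input, 8 in WT OGAP replicate 2 and 102 in WT input replicate 2 (-2.64 ± 0.54 in WT replicate 2, adjusted p = 0.0016, edgeR). In both genes the WT pull-down lay far below all inputs, and the KD pull-downs lay near or within the range of the KD inputs.

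Transcription factor genes were also among these. SOX12, a SOX family factor, held 28 and 19 reads in KD OGAP, 47 and 42 in KD input, 6 in WT OGAP replicate 2 and 86 in WT input replicate 2 (-2.80 ± 0.60 in WT replicate 2, adjusted p = 0.00289, edgeR). EBF4, of the early B cell factor family, held 17 and 19 reads in KD OGAP, 59 and 41 in KD input, 5 in WT OGAP replicate 2 and 77 in WT input replicate 2. EBF4 stood at -2.90 ± 0.64 in WT replicate 2 (adjusted p = 0.00358, edgeR) and at -1.03 ± 0.37 in KD (adjusted p = 0.176), so that its pull-downs were below its inputs in both states. GBX2, a homeobox gene of the developing brain, stood at -2.47 ± 0.64 on the log2 scale in WT replicate 2.

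AKIRIN1, which encodes a small nuclear protein, had few reads in the WT pull-downs. AKIRIN1 held 37 and 29 reads in KD OGAP, 28 and 32 in KD input, 2 in WT OGAP replicate 2 and 47 in WT input replicate 2. The change was -3.48 ± 0.84 in WT replicate 2 (adjusted p = 0.0078, edgeR) and 0.56 ± 0.37 in KD (adjusted p = 0.547). Among further calls, PDLIM7, an actin-associated LIM protein gene, stood at -2.20 ± 0.54, the secretory kinase gene FAM20C at -2.33 ± 0.57, the neuronal pentraxin gene NPTX2 at -2.51 ± 0.63 and the adaptor gene DOK1 at -2.27 ± 0.58.

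The third set of tests asked whether the low promoters changed with depletion. No low promoter passed in KD OGAP against WT OGAP replicate 2 (edgeR, 0 higher and 0 lower), where 0.00575% of all windows and 0.00643% of those that could have been chosen were called higher and 0 lower. At an unadjusted p under 0.05 there were 90 higher (8.46%) and 12 lower (1.13%), against 5.23% and 4.46% of windows that could have been chosen, and with DESeq2 19 and 1, of which 0 passed. The median log2 change was 0.22, against 0.02. In the interaction, the KD log2 change of OGAP over input minus that of WT replicate 2, 0 passed in either direction with edgeR, where 0.00575% of all windows were called higher and 0.00575% lower, and 0.00643% each way of those that could have been chosen. There were 79 higher (7.42%) and 14 lower (1.32%) at an unadjusted p under 0.05, against 4.91% and 4.05%, and with DESeq2 12 and 0, of which 0 passed. The median was 0.30, against 0.04. Without KD OGAP replicate 2 the medians over low promoters were 0.2495 for KD OGAP against WT OGAP and 0.3181 for the interaction.

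The interaction shares its WT libraries with the second test, so a low value there enters here as a high one. Among low promoters with a positive value that the naming rule admits, the lowest p-values belonged to SIX5 (2.69 ± 0.69, adjusted p = 0.168, edgeR), TSPAN17 (2.42 ± 0.63, adjusted p = 0.192), SOX12 (2.31 ± 0.72, adjusted p = 0.326), ATP10A (1.96 ± 0.62), HCN4, a pacemaker channel gene (2.18 ± 0.69), CKM, the muscle creatine kinase gene (1.73 ± 0.57), BMF (1.89 ± 0.63), RHEB, the GTPase that activates mTORC1 (2.35 ± 0.79), the sperm flagellar gene RSPH6A (1.86 ± 0.64) and GBX2 (2.22 ± 0.76). All 10 were also lower in KD input than in WT input replicate 2, at -0.12 in RHEB to -0.87 in RSPH6A on the log2 scale, and the part of this in the interaction was not tested. RHEB held 29 and 33 reads in KD OGAP, 39 and 35 in KD input, 5 in WT OGAP replicate 2 and 46 in WT input replicate 2, so that its pull-downs differed more than its inputs. AKIRIN1 had the lowest p, at 4.04 ± 0.92 (adjusted p = 0.102, edgeR), but fewer reads than the naming rule asks.

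Among negative values of the interaction, the lowest p-values belonged to NTM (-1.62 ± 0.64, adjusted p = 0.448, edgeR), DDI1 (-1.26 ± 0.65), C20orf96 (-1.24 ± 0.63), CT55, a gene of the cancer/testis class (-1.22 ± 0.68), and XPO1, the nuclear export receptor gene (-1.13 ± 0.61). NTM held 26 and 27 reads in KD OGAP, 38 and 43 in KD input, 31 in WT OGAP replicate 2 and 23 in WT input replicate 2. Its WT pull-down was thus above its WT input in replicate 2, where replicate 1 had 6 and 33 reads.

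Inputs were compared in the same way, since copy number and shearing act on them too. No low promoter passed in KD input against WT input replicate 2 (edgeR), nor did any of the windows tested (0% called higher and 0% lower). At an unadjusted p under 0.05 there were 43 higher (4.04%) and 28 lower (2.63%), against 2.92% and 2.3% of windows that could have been chosen; DESeq2 called 0, with 3 and 0. The median was -0.07 over low promoters and -0.02 over windows that could have been chosen. The lowest p-values belonged to PEF1, a calcium-binding protein gene (-1.21 ± 0.40), ASPG (-1.08 ± 0.37), DDI1 (1.18 ± 0.43), TBK1, a kinase gene of innate immunity (1.15 ± 0.47), and RSPH6A (-0.87 ± 0.36), with an adjusted p of 0.91 each.

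GC content went with the ratio in each pair outside the rule. A promoter sequence was at hand for 723 of the 1064 low promoters (68.0%) and for 62.5% of the other promoters. Both are under 80%, so that a check of GC content over the low promoters as a whole is void, and what follows describes those windows only. Their median GC content was 67.3%, against 63.0% in the other promoters, and the median ratio of observed to expected CpG was 0.84, against 0.76. Low promoters made up 12.1% of the windows at 75% GC or more, 8.23% at 65 to 75%, 5.25% at 55 to 65%, 6.01% at 45 to 55% and 6.77% under 45%.

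The ratio was lower at high GC content in the low promoters and in the other promoters alike. At 75% GC or more (165 windows) the median ratio was 0.786 and 0.731 in KD and 0.514 in WT replicate 2, against 0.843, 0.824 and 0.630 in the other promoters of that class. Under 45% GC (61 windows) it was 1.13 and 0.969 in KD and 1.002 in WT replicate 2, against 1.12, 1.12 and 1.35. Of the low promoters at 75% or more, 93.9% were below a ratio of 1 in WT replicate 2, against 82.6% of the other promoters of that class, and under 45% the shares were 49.2% and 29.8%. Low promoters thus lay below the others in the same class in 14 of 15 comparisons of class and pair, the exception being KD replicate 1 under 45%. Of the 46 called in WT replicate 2, 34 had a sequence, with a median GC content of 71.8% and 28 at 65% or more. Among all 723 low promoters with a sequence the median was 67.3%, with 253 at 65 to 75% and 165 at 75% or more. The GC content of other windows called lower in this pair was not compared. Across low promoters with a sequence, GC content and the log2 ratio correlated at r = -0.41 in WT replicate 2 and -0.32 in KD (722 windows, a description). How far GC content accounts for the choice was not tested.

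**Figure D4:**
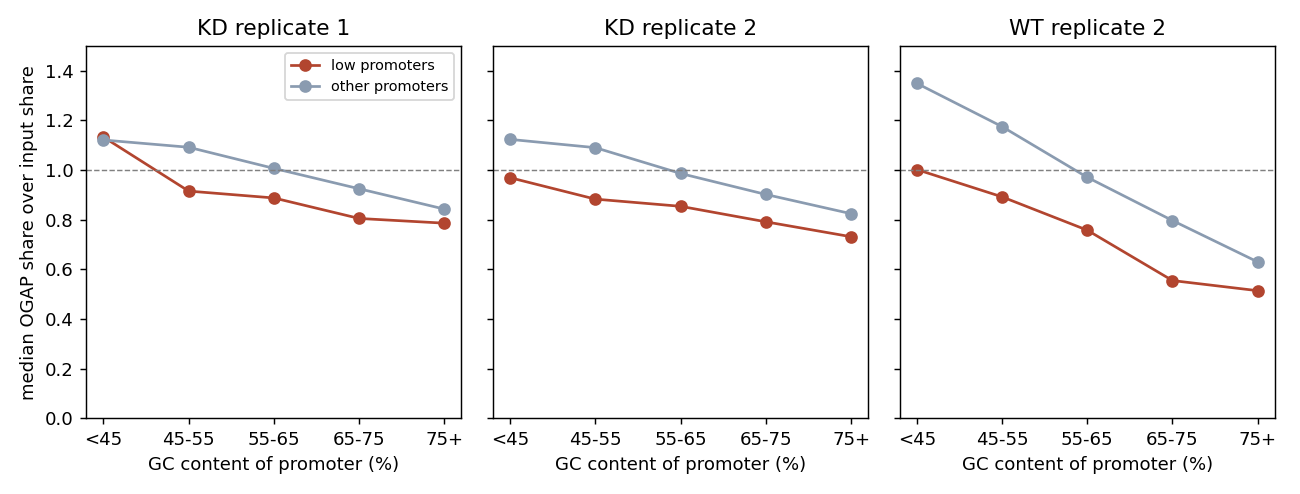
Median ratio of OGAP share to input share against the GC content of the 300 bp RefSeq promoter, for low promoters and other promoters with a sequence, in each pair that did not choose the members. The ratio falls with GC content in both sets, to 0.514 in low promoters of 75% or more in WT replicate 2, and the low promoters lie under the others except at under 45% in KD replicate 1.

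Of 10 motifs searched, the GC box had the largest difference in percentage points between low promoters and the other promoters. As for GC content, this describes only the windows with a sequence. The GC box GGGCGG, bound by Sp1 family factors, was found on either strand in 71.2% of the 723 low promoters with a sequence, against 60.4% of the other promoters and 60.7% of all 12038 promoters of that length. A pattern of 4 runs of 3 or more G with spacers of 1 to 7 bases, of the kind that can fold into a G-quadruplex, was in 37.1%, against 32.2% and 30.8%. It can overlap the GC box. The TATA box TATAAA was in 10.1%, against 9.35% and 9.59%, and CCAAT in 36.5%, against 36.2% and 37.1%. The ETS core CCGGAAG was in 12.3%, against 13.4% and 14.9%, the NRF1 core GCGCATG in 4.84%, against 5.67% and 6.07%, and the YY1 core AAGATGG in 4.01%, against 6.24% and 6.60%. The CRE TGACGTCA was in 3.18%, against 2.62% and 2.76%, the AP-1 site TGANTCA in 5.39%, against 5.64% and 5.44%, and the E-box CANNTG in 60.7%, against 64.6% and 64.1%. A match is a run of letters and not a site in use.

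By position, low promoters had somewhat fewer windows around them at long range, although 7.80% overlapped another window, against 3.29% of the other promoters. The median number of other promoter windows within 500 kb was 9, against 12 for the other promoters, and 49.1% were on the plus strand, against 50.7%. Chromosome 19 had the smallest share of low promoters among the nuclear chromosomes, 46 of 1147 windows with enough input (4.01%), followed by chromosome 17 at 5.33%. The share was highest on chromosome 21, at 19 of 161 (11.8%), and on chromosome 18, at 21 of 210 (10%). Chromosome 10 had 40 of 625 (6.40%). These shares describe WT replicate 1. In WT replicate 2 the low promoters of chromosome 19 had a median ratio of 0.540 and those of chromosome 12 of 0.958, with KD medians of 0.856 and 0.734 on chromosome 19 and 0.961 and 0.995 on chromosome 12.

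Gene lists are described by their counts, with no test of a list. Over all low promoters 4.32% were called lower in WT replicate 2, against 2.19% of windows that could have been chosen, and a call or 2 in a list of this size says nothing about the list. Of 176 patterning transcription factor windows with enough input 18 were low promoters (10.2%), against 6.84% of all windows with enough input. FOXD3, HOXA13, LHX1 and SOX11 were among these 18. Their medians were 0.934 and 0.793 in KD and 0.520 in WT replicate 2, where 17 of 18 lay below 1, and SIX5, SOX12 and FOXD4 (-1.85 ± 0.60) were called lower there. Of 107 signalling ligand windows, chosen by symbol prefix so that the receptor gene TGFBR1 is included, 11 were low (10.3%), with SHH and WNT11 among them and no call. Of 34 ZBTB genes, transcription factors with BTB domains and zinc fingers, 5 were low (14.7%), with a median of 0.485 in WT replicate 2 and ZBTB7A called (-2.64 ± 0.71). Of 32 listed immediate early genes, the rapid responders to growth factors, 5 were low, namely DUSP4, JUNB, JUND, KLF6 and NR4A3. ARC, an activity-regulated gene that was low as well, is not on this list. JUND held 29 and 25 reads in KD OGAP, 56 and 34 in KD input, 10 in WT OGAP replicate 2 and 81 in WT input replicate 2, and was called lower there (-1.99 ± 0.55, adjusted p = 0.0209, edgeR). No list had a member called in KD in the 6-library edgeR fit; without KD OGAP replicate 1, SLC7A6 of the solute carriers and TMEM229A of the TMEM genes were called lower there.

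Other lists had single promoters called in WT replicate 2. MYH9, which encodes the heavy chain of a non-muscle myosin, was low with PTK2 and ROCK1 out of 24 actomyosin and adhesion genes, and was called at -1.51 ± 0.47 in WT replicate 2 against -0.14 ± 0.30 in KD, which did not pass. Of 294 solute carrier genes 28 were low (9.52%), with SLC16A6 called (-2.36 ± 0.65), which is 1 of 28. The promoters of SLC16A6, TMEM88 and ZNF18 had fewer reads than the naming rule asks and were named after their values were seen. Of 148 TMEM genes 16 were low (10.8%), all below 1 in WT replicate 2, with TMEM52 (-1.93 ± 0.49) and TMEM88 (-2.68 ± 0.85) called. Of 353 ZNF genes 18 were low (5.10%), with ZNF18 (-2.48 ± 0.74) and ZNF592 (-1.70 ± 0.55) called. Potassium channel genes had 4 low of 78, clustered protocadherins 7 of 44 and histone genes 5 of 31, with no call.

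The low promoters of olfactory receptor and keratin-associated protein genes had medians above 1 in WT replicate 2, where 4 of 10 and 4 of 9 lay below 1. Medians above 1 there were also found in ADAM family proteases (1.03) and in base excision and single-strand break repair (1.003). The same held for the retinal pigment epithelium list (2.16, RPE65 only). Of 141 olfactory receptor windows 10 were low (7.09%), with medians of 1.27 and 0.973 in KD and 1.09 in WT replicate 2. Of 76 keratin-associated protein windows 9 were low (11.8%), with medians of 0.890 and 1.04 in KD and 1.18 in WT replicate 2. RPE65 was the only low promoter among 18 retinal pigment epithelium genes. No low promoter was found among 47 nuclear genes of oxidative phosphorylation (a list without the mitochondrial genes such as ND6), 23 NRF2 target and antioxidant genes, 20 elongation and pausing genes, 17 spindle and NuMA partner genes or 16 p53 targets. Base excision and single-strand break repair gave MPG and NEIL3, both DNA glycosylase genes, of 12, and double-strand break repair gave the helicase gene BLM of 11. Cytoplasmic ribosomal protein genes gave RPL10A and RPS2 of 50, mitochondrial ribosomal protein genes MRPL14 of 37, orphan receptors of the GPR class 3 of 55 and ADAM family proteases 5 of 38. None of these was called in the 6-library edgeR fit; ADAMTS1 was called lower in WT replicate 2 under several alternatives, the replicate block and leaving out either KD OGAP library among them.

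Finally, the edges of the rule are given for orientation. The lowest ratios in WT replicate 1 among promoters open to the naming rule were 0.0411 in PTCHD1, 0.0669 in PRR5, a gene of an mTORC2 component, 0.0760 in AGPAT5, 0.0806 in ZCCHC2 and 0.0987 in METTL24. In WT replicate 2 the same 5 had ratios of 0.440, 0.346, 0.838, 0.350 and 0.388 in that order. Just inside the limit were ENHO (at the limit), GRID1 (0.3992) and HSBP1 (0.3950), and just outside were INPP5A (0.4007), PDGFB (0.4011) and PITRM1 (0.4011). In WT replicate 2 those inside had ratios of 0.446, 0.285 and 0.971, and those outside of 0.415, 0.615 and 0.388.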

How the data were processed

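The authors deposited whole-number read counts for 19957 promoter windows in 8 libraries. BWA (version 0.7.17-r1188), featureCounts, bedtools and MACS2 are named with build hg38 in the submitters' processing notes. How reads were filtered or duplicates removed is not given in the sources used here. Deposited coverage profiles summed over genes were not used.

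The members and lists were chosen with earlier results of these data known. The table carries Ensembl identifiers, and windows were named by position (within 500 bp of the start of exactly 1 RefSeq protein-coding gene, GRCh38.p14, same strand; genes of unknown strand were matched on the strand of the window). This named 15656 windows (78.4%), against 1.09% after a shift of 200 kb. Promoter sequences are from RefSeq (GRCh38.p14).

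Counts of the 6 libraries outside the rule were fitted by quasi-likelihood (edgeR 4.0.16, R 4.3.3, TMM, 4 group means, windows with a sum of 30 or more reads). This kept 17382 windows and all 1064 members, with Benjamini-Hochberg adjustment over all windows tested and a threshold of 0.05. The filter uses the sum and no single group. Each SE was back-calculated from the F statistic and is approximate. Biological variation (common coefficient) came to 0.176, with 67.5 prior and 2 residual degrees of freedom, so a window's own spread counted for little. Replicates of each group differed by more than sampling noise (chi-square per degree of freedom 1.90 to 2.14). The fit was tested on simulated data. By the naming rule, windows had no overlap, a sum at or above the members' median of 187 reads, and the lowest p in a comparison, the lowest rule ratio, a place next to the limit or a call in a gene list; ND6, promoters listed because a setting changed their call, and those said so in the text were chosen after their values were seen. Of the gene lists, members are named as examples. A gene and a gene list that the rules would name are not reported here. Alternatives were other scalings, filters, DESeq2 1.42.0, a replicate block, left-out libraries and other limits of the rule.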

Additional observations from a re-analysis of the deposited data

How the results depend on the processing

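The medians over the low promoters kept their sign under each setting tried, except that of input under upper quartile scaling, and the counts of calls moved. Leaving out a WT library would leave no WT arm and was not run. Over the low promoters, the KD median was between -0.27 and -0.17 when a KD library was left out (-0.2676 to -0.1687), and the number lower 1 to 12 with 0 higher. For WT replicate 2 that number was 38 to 76 with 0 to 2 higher and a median of -0.4997 to -0.4975. For KD against WT OGAP the number higher was 0 to 2 with 0 lower and a median of 0.1896 to 0.2495. For the interaction it was 0 to 1 higher and 0 lower, with a median of 0.2149 to 0.3447, and for input 0 in either direction, with a median of -0.09051 to -0.06293.

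The number lower in KD was 6 without a count filter, 1 with DESeq2, 5 with the replicate block, 4 without overlapping windows and 1 without the mitochondrial windows (chosen after seeing the data). Over all windows tested these settings gave 33, 4, 31, 25 and 13 lower. The number lower in WT replicate 2 was 0 with DESeq2. In the fit of all 8 libraries it was 355, against 741 over all windows tested, with a median of -0.9866. That fit holds the libraries that chose the members and so is no test. It also gave 2 higher in KD against WT OGAP (median 0.6193), 1 in the interaction (median 0.7687) and a median of -0.1391 in input. Over all windows tested it gave 3 and 1 higher in the same comparisons. In WT replicate 2, 1 was higher without overlapping windows, against 784 over all windows tested. KD against WT OGAP had 1 higher without a count filter and 1 without overlapping windows, and the interaction 1 higher without a filter and 1 with the replicate block, AKIRIN1 each time. Over all windows tested these gave 5, 4, 6 and 6 higher. Medians moved to 0.2762 (KD against WT OGAP) and 0.003842 (input) with upper quartile scaling, and to -0.5604 (WT replicate 2) and 0.2717 (KD against WT OGAP) with column totals. They moved to 0.2508 (interaction) without overlapping windows, and to -0.2503 (KD) and -0.5502 (WT replicate 2) without chromosomes 10 and 12. With an input minimum of 30 the WT median was -0.5614. With a minimum of 50 the medians were -0.2628 (KD), -0.7473 (WT replicate 2), -0.16 (input) and 0.4356 (interaction). The causes were not tested.

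Differences between replicates in OGAP and in input correlated at 0.02 in KD and -0.03 in WT. With so few reads a window, this cannot show whether libraries of the same number were prepared together. The replicate block and the ratios take the numbers as given. In KD against WT OGAP, CT55 (-0.464) ranged over -1.266 to 0.1096 when a KD library was left out and turned to 0.0627 with all 8 libraries, DDI1 to 0.336 and NTM to 0.09299 with all 8; none was called. Among the calls in WT replicate 2, those of CKM, RHEB, FAXC, ZNF592, FOXD4 and ENSG00000215790 were lost when either KD input was left out. Those of ANO9 and LBH were lost without KD input replicate 1. With 1 WT library of each kind, depth and the borrowed spread limit what the WT calls can show.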
